A study of Arabidopsis thaliana with 18 samples.

Results

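The comparison described here asks, gene by gene, whether the change with abscisic acid (ABA) differed between vnd123, which carries mutations in VND1, VND2 and VND3 together, and the wild type Col-0. It is the ABA response of vnd123 minus the ABA response of Col-0, on the log2 scale, and is called the interaction below. A value below 0 means a smaller rise or a larger fall in vnd123 than in Col-0. It was computed for every gene with enough reads, 20869 of the 34218 features counted, from 12 of the 18 libraries of the series. The groups were vnd123 roots with ABA, vnd123 roots with mock, Col-0 roots with ABA and Col-0 roots with mock, with 3 libraries each. The other 6 libraries came from the mutant vnd7 with ABA and with mock, and they entered the fit as a shared source of the estimate of spread. All were Arabidopsis thaliana roots (1 cm) from seedlings 5 days old, moved for 8 h to plates with 1 µM ABA or mock, with 50 to 100 seedlings pooled in each sample. The labels give no alleles for the mutants, and they number the replicates without saying that they came from separate cultures, so each p-value is set against the variation among these libraries only, and part of it may be technical.

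The VND family belongs to the NAC transcription factors and drives cells to become xylem vessels, the water-conducting tubes of the plant. Vessel cells lay down a secondary wall of cellulose, xylan and lignin and then die, and the VND proteins stand at the top of this programme, above the MYB46 and MYB83 regulators and the wall enzymes. ABA is the hormone of drought and osmotic stress. It is bound by PYR/PYL receptors, which inhibit the clade A PP2C phosphatases and so free SnRK2 kinases to activate ABF transcription factors and their targets, among them LEA proteins.

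Total counts per library ran from 38325491 to 58705802 over the 18 libraries. The first principal component of log2 CPM held 62.6% of the variance and the second 5.12%, and the common biological coefficient of variation was 0.106. Levels are CPM, the read count of a gene scaled to a common library size with TMM factors, with n = 3 libraries per group. Changes are log2 fold changes ± SE from edgeR's quasi-likelihood fit. The SE was derived as the size of the change divided by the square root of the F statistic of its test. A gene is called where its Benjamini-Hochberg adjusted p over all 20869 genes was under 0.05.

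ABA changed a large share of the measured genes in both genotypes. In vnd123, 6757 genes (32.4%) were called, 3872 higher and 2885 lower with ABA, and in Col-0, 6532 (31.3%) were called, 3743 higher and 2789 lower. The split depended on scaling. Higher calls were 57.3% of all in both genotypes, but 44.6% in vnd123 and 42.8% in Col-0 with unscaled library sizes. Of the called genes 5176 were shared, which was 76.6% of the vnd123 calls and 79.2% of the Col-0 calls, and 5175 of them moved the same way. Across all genes tested the responses of vnd123 and Col-0 had a Pearson correlation of 0.877 and a Spearman correlation of 0.801. For the 17390 genes with a mean log2 CPM above 1 the Pearson value was 0.955. Genes within a library are not independent replicates, so these values only describe the plot.

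The interaction itself was called for 0 of 20869 genes (0%) with edgeR, and the smallest adjusted p was 0.786. At an unadjusted p under 0.05 there were 748 genes (3.58%), of which 329 were above 0 and 419 below. DESeq2, run on the same genes, called 6 genes, all below 0, among 809 with an unadjusted p under 0.05. The 6 were the laccase gene LAC17, the glyoxalase family gene GLYI7, the thioredoxin gene WCRKC1, and AT2G40390, AT1G44030 and AT1G67870. A fit restricted to the 12 libraries of the comparison called 1 gene higher, AT5G50550, and 0 lower.

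The absence of calls does not show that the responses were alike, and the intervals say how far they could differ. The median SE of the interaction was 0.162, or 0.145 for genes with a mean log2 CPM above 1 and 0.676 for the others. The 95% interval lay within a 2-fold difference of the responses for 16910 genes (81%) and within a 1.5-fold difference for 13348 (64%). Among the genes with a mean log2 CPM above 1, 16590 (95.4%) had an interval within a 2-fold difference. The median interaction over all genes was 0.00115, and 49.7% of the genes were below 0. A fitted difference of at least 2-fold, with no test, was found for 805 genes (3.86%).

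**Figure D1:**
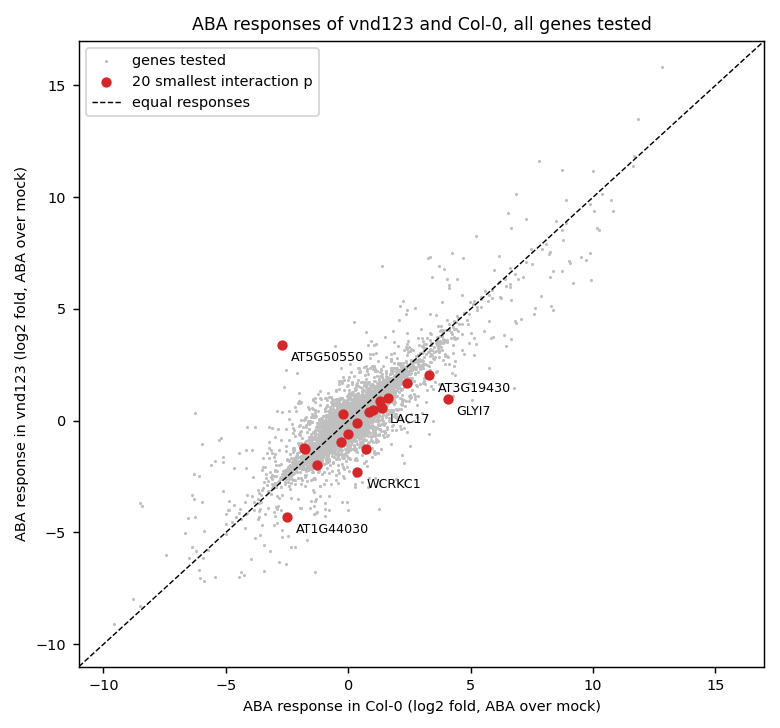
ABA response of each of the 20869 genes in vnd123 (y axis, log2 fold, ABA over mock) against that in Col-0 (x axis, same scale), with the line of equal responses dashed. Red points are the 20 genes with the smallest interaction p, 16 of them below the line and 4 above, and AT5G50550 lies far from the line with a response of 3.40 in vnd123 and -2.70 in Col-0.

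The smallest interaction p belonged to LAC17, which encodes a laccase that polymerises lignin in Arabidopsis. LAC17 had 33.1, 26.2 and 30.7 CPM in vnd123 with ABA and 17.5, 22.3 and 18.8 CPM in vnd123 with mock. Col-0 had 71.9, 78.4 and 67.8 CPM with ABA and 28.7, 29.3 and 29.0 CPM with mock. Both vnd123 groups lay below the Col-0 group of the same treatment without overlap, and ABA libraries lay above mock libraries in both genotypes. LAC17 rose with ABA by 0.62 ± 0.10 in vnd123 and by 1.33 ± 0.09 in Col-0. The interaction was -0.71 ± 0.13, a ratio of the folds of 0.612, with an adjusted p of 0.786 from edgeR and 0.00754 from DESeq2. Its 95% interval was -0.99 to -0.43. The gap between vnd123 and Col-0 was called in both treatments, at -1.27 ± 0.09 under ABA (adjusted p = 1.35e-07) and -0.57 ± 0.10 in mock (adjusted p = 0.00331). In the reference annotation LAC17 overlaps AT5G60022 and AT5G00685, and the library kit does not mark strand, so reads of overlapping genes cannot be told apart.

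GLYI7, of the glyoxalase I family whose enzymes detoxify methylglyoxal, had 0.832, 0.386 and 0.568 CPM in vnd123 with ABA and 0.465, 0.184 and 0.277 CPM in vnd123 with mock. In Col-0 it had 4.89, 5.43 and 2.98 CPM with ABA and 0.131, 0.369 and 0.281 CPM with mock. Col-0 with ABA stood far above the other 3 groups, and vnd123 with mock overlapped both vnd123 with ABA and Col-0 with mock. GLYI7 rose by 4.06 ± 0.41 in Col-0, and the value in vnd123 was 0.98 ± 0.44 (adjusted p = 0.0979). The interaction was -3.08 ± 0.61 (adjusted p = 0.786 from edgeR, 0.00209 from DESeq2). It rests on few reads, 24, 10 and 15 in vnd123 with mock and 6, 18 and 15 in Col-0 with mock, and the gene overlaps AT1G80165.

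WCRKC1 and AT2G40390 fell with ABA in vnd123 and were not called in Col-0. WCRKC1, which the reference names as a WCRKC thioredoxin, had 0.314, 0.0515 and 0.361 CPM in vnd123 with ABA and 1.72, 1.105 and 0.831 CPM in vnd123 with mock, against 2.58, 2.38 and 1.14 CPM in Col-0 with ABA and 1.83, 1.60 and 1.27 CPM in Col-0 with mock. The 3 vnd123 libraries with ABA were the lowest of the 12, at only 17, 2 and 14 reads. Its response was -2.29 ± 0.45 in vnd123 and 0.37 ± 0.36 in Col-0, an interaction of -2.66 ± 0.58 (adjusted p = 0.829 from edgeR, 0.00825 from DESeq2). AT2G40390 had 0.481, 0.541 and 0.671 CPM in vnd123 with ABA and 1.16, 1.47 and 1.38 CPM in vnd123 with mock, and in Col-0 it had 1.72, 2.49 and 2.00 CPM with ABA and 1.68, 0.985 and 1.05 CPM with mock. Again vnd123 with ABA was lowest without overlap, at only 26, 21 and 26 reads. The interaction was -2.00 ± 0.42 (adjusted p = 0.829 from edgeR, 0.0203 from DESeq2).

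AT1G44030, a gene of the C1 domain family, fell with ABA in both genotypes and further in vnd123. It had 0.388, 0.361 and 0.0775 CPM in vnd123 with ABA and 6.31, 5.71 and 5.15 CPM in vnd123 with mock, against 1.22, 0.595 and 0.768 CPM in Col-0 with ABA and 4.69, 5.32 and 4.85 CPM in Col-0 with mock. The mock groups overlapped and the ABA groups did not, with only 21, 14 and 3 reads in vnd123 with ABA. The fall was -4.32 ± 0.31 in vnd123 and -2.52 ± 0.27 in Col-0, an interaction of -1.80 ± 0.42 (adjusted p = 0.829 from edgeR, 0.0203 from DESeq2). AT1G67870, a glycine-rich protein gene, had 54.4, 42.9 and 53.5 CPM in vnd123 with ABA and 36.4, 31.4 and 34.9 CPM in vnd123 with mock, against 68.5, 86.7 and 59.3 CPM in Col-0 with ABA and 29.8, 23.5 and 29.4 CPM in Col-0 with mock. It lay below Col-0 with ABA and above Col-0 in mock, both without overlap. Its rise was 0.55 ± 0.13 in vnd123 and 1.37 ± 0.13 in Col-0, and the interaction was -0.82 ± 0.18 (adjusted p = 0.829 from edgeR, 0.0421 from DESeq2). For these 6 genes DESeq2 gave the smallest adjusted p of the 24 alternatives run, and the largest was 1 for each. Leaving out any 1 library kept the sign of all 6, which their choice by small p favours, and those edgeR fits called 0 genes.

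**Figure D2:**
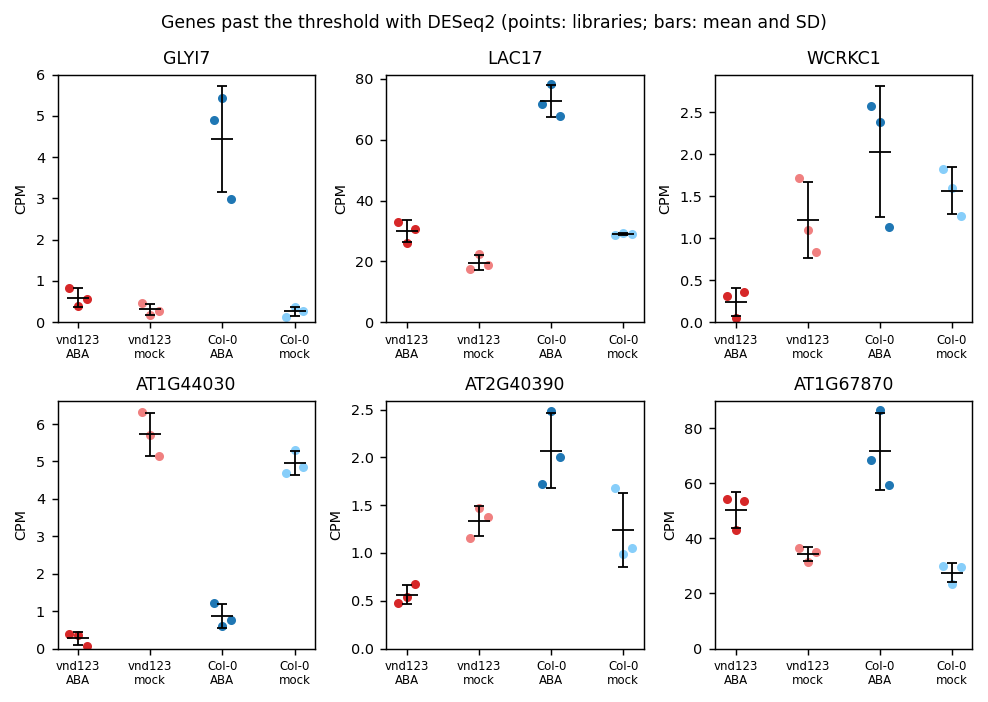
CPM of the 6 genes that DESeq2 called in the interaction, in each library of vnd123 with ABA, vnd123 with mock, Col-0 with ABA and Col-0 with mock; points are libraries, and bars are the mean and SD of 3. In LAC17 both vnd123 groups lie below the Col-0 group of the same treatment. In WCRKC1 and AT2G40390 vnd123 with ABA is the lowest group, and in GLYI7 Col-0 with ABA is the only high group.

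The 20 genes with the smallest interaction p were ranked by that p, so their pattern is a description. The interaction subtracts the Col-0 response and uses the same libraries. The ranking itself therefore favours the splits by Col-0 response, the separation and the genotype calls counted here. Unadjusted p reached 0.0012 at the last of them, and 3 of the 20 had a mean log2 CPM under 1. The interaction was below 0 in 16 and above 0 in 4. Of the 20 genes, 10 rose with ABA in Col-0, and all 10 had an interaction below 0. Another 6 fell in Col-0, 3 with an interaction above 0 and 3 below, and the last 4 were not called in Col-0. vnd123 with ABA and Col-0 with ABA did not overlap in 17 of the 20 (13.8% of all genes), and the mock groups did not overlap in 10 (13% of all genes). vnd123 minus Col-0 was called under ABA in 13 of the 20 (1.09% of all genes) and in mock in 2 (0.609%), LAC17 and AT3G19430.

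Among the genes that rose with ABA in both genotypes, SUS1 encodes a sucrose synthase, which cleaves sucrose. SUS1 had 52.9, 64.1 and 58.5 CPM in vnd123 with ABA and 30.3, 27.9 and 29.5 CPM in vnd123 with mock, against 78.3, 90.01 and 63.8 CPM in Col-0 with ABA and 23.9, 26.5 and 25.6 CPM in Col-0 with mock. The ABA groups overlapped by a narrow margin, and vnd123 was the higher group in mock. The interaction was -0.61 ± 0.15, from a rise of 1.00 ± 0.10 in vnd123 and 1.61 ± 0.11 in Col-0. PR4, a hevein-like pathogenesis-related gene, had an interaction of -0.43 ± 0.10, and its ABA levels were 217, 214 and 192 CPM in vnd123 and 254, 281 and 237 CPM in Col-0. AT1G55240 had -0.68 ± 0.18, and AT5G45350 had -0.45 ± 0.12. AT1G23460, of the pectin lyase-like family, rose in Col-0 by 0.37 ± 0.08 and stood at -0.12 ± 0.08 in vnd123, an interaction of -0.49 ± 0.11.

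As for SUS1, the genotypes overlapped with ABA and stood apart in mock for AT3G19430 and CER3. AT3G19430, annotated as LEA-related, had 58.8, 42.6 and 63.6 CPM in vnd123 with ABA and 38.5, 65.2 and 63.2 CPM in Col-0 with ABA, which overlapped. In mock it had 11.6, 14.1 and 14.8 CPM in vnd123 and 8.20, 3.88 and 5.02 CPM in Col-0, which did not, and that difference of 1.25 ± 0.23 was called (adjusted p = 0.00848). The interaction was -1.27 ± 0.31. CER3, a gene of cuticular wax synthesis, also overlapped with ABA and stood higher in vnd123 in mock, with 18.9, 18.1 and 17.9 CPM in vnd123 and 14.4, 12.5 and 13.9 CPM in Col-0. Its interaction was -0.54 ± 0.14, and its mock difference of 0.43 ± 0.10 was not called (adjusted p = 0.0591).

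Genes that fell with ABA in Col-0 were found on both sides of 0. GLYI4, like GLYI7 a glyoxalase I family gene, had 79.2, 77.2 and 73.2 CPM in vnd123 with ABA and 351, 285 and 271 CPM in vnd123 with mock, against 137, 130 and 104 CPM in Col-0 with ABA and 325, 308 and 254 CPM in Col-0 with mock. Only the ABA groups stood apart, and the interaction was -0.72 ± 0.17. The lipid-transfer family gene AT5G05960, which overlaps AT5G05950 and AT5G05965, had -0.67 ± 0.16. In the other direction, the dehydrogenase-like gene AT4G22110 fell by 1.26 ± 0.08 on the log2 scale in vnd123 and by 1.77 ± 0.08 in Col-0, an interaction of 0.51 ± 0.12. AT1G68880, which encodes a basic leucine-zipper protein, fell by 1.22 ± 0.11 in vnd123 and by 1.82 ± 0.11 in Col-0, an interaction of 0.60 ± 0.15. WRI1, an AP2 factor known for switching on fatty acid synthesis in seeds, rose by 0.30 ± 0.09 in vnd123 and was not called in Col-0 at -0.21 ± 0.09, an interaction of 0.52 ± 0.12. AT4G13150, which is uncharacterised, fell by 0.59 ± 0.10 in vnd123 and had -0.01 ± 0.10 in Col-0, an interaction of -0.58 ± 0.14.

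AT5G50550, a WD40 family gene, was the only gene called in opposite directions in vnd123 and Col-0. It had 12.1, 4.07 and 4.18 CPM in vnd123 with ABA and 0.310, 0.663 and 0.960 CPM in vnd123 with mock, against 0.836, 0.703 and 0.834 CPM in Col-0 with ABA and 5.296, 5.296 and 4.95 CPM in Col-0 with mock. It was high in vnd123 with ABA and in Col-0 with mock, with no overlap between genotypes in either treatment, although the difference was called in neither (adjusted p = 0.2 under ABA and 0.375 in mock). The interaction of 6.10 ± 1.40 had an adjusted p of 0.829 in the fit of all libraries and 0.000706 in the fit restricted to the 12 libraries, and over all alternatives the adjusted p ran to 1. In vnd7 the gene varied within groups, with 0.534, 7.99 and 0.299 CPM with ABA and 5.76, 9.64 and 0.295 CPM with mock. Its value is uncertain, because AT5G50650 is identical to it over 100% of its length in the reference and AT5G50560 overlaps it. The copy AT5G50650 was counted with 0 to 7 reads per library, against 14 to 653 for AT5G50550. How reads shared by both were counted is not given.

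**Figure D3:**
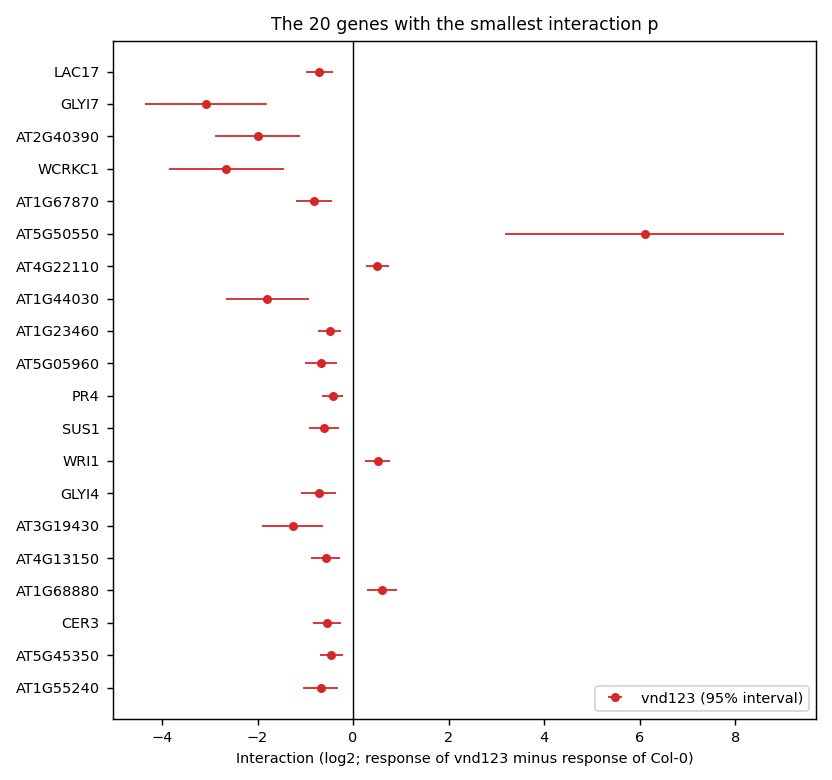
Interaction (x axis, log2; response of vnd123 minus response of Col-0) of the 20 genes with the smallest p, ordered by p from the top; points are estimates and lines are 95% intervals. All lines stay on one side of 0 because the genes were ranked by p, 16 of them below 0 and 4 above.

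The mutated genes themselves were lower in vnd123 but not empty. VND1 had 1, 15 and 1 reads in vnd123 with ABA and 0, 1 and 7 reads in vnd123 with mock, against 39, 19 and 62 reads in Col-0 with ABA and 57, 65 and 79 reads in Col-0 with mock. Its interaction of 1.86 ± 1.09 turned to -0.62 without vnd123 ABA replicate 2, so it has no stable sign. VND2 had 0.592, 0.824 and 0.645 CPM in vnd123 with ABA and 0.465, 0.460 and 0.443 CPM in vnd123 with mock, against 4.13, 2.68 and 3.44 CPM in Col-0 with ABA and 1.48, 1.81 and 2.17 CPM in Col-0 with mock. VND2, which overlaps AT4G36170, rose with ABA in Col-0 by 0.91 ± 0.21, was 0.58 ± 0.26 in vnd123 (adjusted p = 0.105), and had an interaction of -0.33 ± 0.34.

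VND3 had 1.44, 1.39 and 1.37 CPM in vnd123 with ABA and 1.24, 1.66 and 1.62 CPM in vnd123 with mock, against 6.16, 5.49 and 5.57 CPM in Col-0 with ABA and 3.88, 3.57 and 3.84 CPM in Col-0 with mock. It rose in Col-0 by 0.61 ± 0.13 and stood at -0.10 ± 0.16 in vnd123. The interaction was -0.71 ± 0.20 with an unadjusted p of 0.0025 and an adjusted p of 1. VND7, the vessel regulator that is intact in vnd123, had 2.59, 2.47 and 3.85 CPM in vnd123 with ABA and 1.82, 1.60 and 2.29 CPM in vnd123 with mock, against 5.50, 5.46 and 5.79 CPM in Col-0 with ABA and 2.27, 2.13 and 2.55 CPM in Col-0 with mock. Its ABA groups did not overlap and its mock groups did. VND7 rose in Col-0 by 1.27 ± 0.24, was 0.64 ± 0.24 in vnd123 (adjusted p = 0.0532), and had an interaction of -0.63 ± 0.34 (95% interval -1.35 to 0.08).

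Part of the vessel and secondary wall programme was lower in vnd123 with and without ABA, and part of it rose with ABA in both genotypes. The 5 lists, of NAC regulators, MYB and other wall regulators, cellulose and xylan enzymes, lignin enzymes, and genes for the death and wall pattern of vessel cells, had 89 tested members. vnd123 minus Col-0 was called lower under ABA in 33 of them (0.944% of all genes) and in mock in 28 (0.484%), in both treatments in 26, and higher in 0. With ABA, 43 of the 89 rose in vnd123 (18.6% of all genes) and 54 in Col-0 (17.9%). The interaction was called in 0 of the 89, its median was -0.0722, and 71 of the 89 intervals lay within a 2-fold difference (81% of all genes). At an unadjusted p under 0.05 there were 13 members, or 14.6% against 3.58% of all genes, 12 below 0 and 1 above. Without VND1, VND2 and VND3, which are mutated, 86 members remained. Of these, 30 were called lower in vnd123 under ABA, 25 in mock and 23 in both treatments, and 12 had an interaction at that unadjusted p (14%). The 13 became 8 without vnd123 mock replicate 2. Genes called by genotype averaged over both treatments, described further below, also exceeded the share of all genes. At an unadjusted interaction p under 0.05 there were 64 of the 331 lower in vnd123 (19.3%) and 15 of the 87 higher (17.2%). In bulk roots, fewer vessel cells and less RNA per vessel cell cannot be told apart.

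The lists and their members were chosen with earlier results of these data known, and list members named beyond the smallest interaction p of their list were chosen after their values were seen. Cellulose and xylan genes all had an interaction interval within a 2-fold difference. So did 81% of all genes and 95.4% of genes with a mean log2 CPM above 1. Of 21 tested, 16 were called lower in vnd123 under ABA (0.944% of all genes) and 14 in mock (0.484%), all 14 in both. The median of vnd123 minus Col-0 was -0.784 under ABA and -0.768 in mock. The 21 intervals of the interaction ran between a 0.578-fold and a 1.45-fold ratio of the responses, and their median was -0.0842. CESA8, a cellulose synthase of the secondary wall, had 32.3, 28.9 and 31.0 CPM in vnd123 with ABA and 15.7, 19.5 and 19.3 CPM in vnd123 with mock, against 61.1, 62.2 and 53.1 CPM in Col-0 with ABA and 32.0, 34.3 and 30.9 CPM in Col-0 with mock. Its vnd123 level with ABA was close to its Col-0 level in mock, and the interaction was -0.10 ± 0.14.

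The chitinase-like gene CTL2, which acts in cellulose deposition, had the smallest interaction p of that list. CTL2 had 30.4, 30.3 and 37.6 CPM in vnd123 with ABA and 29.1, 29.99 and 28.7 CPM in vnd123 with mock, against 68.3, 73.8 and 70.1 CPM in Col-0 with ABA and 47.2, 54.4 and 47.7 CPM in Col-0 with mock. The vnd123 groups stood well below Col-0 in both treatments. CTL2 rose in Col-0 by 0.51 ± 0.09 and was 0.16 ± 0.09 in vnd123 (adjusted p = 0.164), an interaction of -0.34 ± 0.12. GUX1, which adds glucuronic acid to xylan, had 7.07, 7.45 and 7.82 CPM in vnd123 with ABA and 3.58, 4.31 and 3.56 CPM in vnd123 with mock, against 18.9, 18.1 and 16.4 CPM in Col-0 with ABA and 7.35, 7.86 and 6.595 CPM in Col-0 with mock. It rose in both genotypes, and its interaction was -0.33 ± 0.14. Its relative GUX2 had -0.27 ± 0.11, and the xylan backbone gene IRX10 had -0.29 ± 0.13.

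Both laccases known to act with LAC17 in lignin polymerisation had intervals that include 0. LAC4 had 53.7, 47.8 and 60.1 CPM in vnd123 with ABA and 35.1, 38.7 and 34.7 CPM in vnd123 with mock, against 106, 110 and 94.0 CPM in Col-0 with ABA and 63.8, 69.5 and 63.8 CPM in Col-0 with mock. It was lower in vnd123 in both treatments without overlap, and its interaction was -0.08 ± 0.12 (95% interval -0.34 to 0.18). LAC11 had 87.5, 71.6 and 88.4 CPM in vnd123 with ABA and 52.7, 54.4 and 46.6 CPM in vnd123 with mock, against 142, 149 and 144 CPM in Col-0 with ABA and 78.3, 79.9 and 72.5 CPM in Col-0 with mock. Its interaction was -0.23 ± 0.13 (95% interval -0.50 to 0.05). The difference between the interactions of the laccases was not tested.

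MYB46, a master regulator of secondary walls directly below the VND proteins, was the 1 wall gene above 0 at an unadjusted p under 0.05. MYB46 had 7.18, 7.62 and 8.93 CPM in vnd123 with ABA and 2.15, 3.06 and 3.40 CPM in vnd123 with mock, against 12.1, 10.3 and 12.3 CPM in Col-0 with ABA and 7.41, 5.83 and 5.70 CPM in Col-0 with mock. The mock difference of -1.13 ± 0.15 was called (adjusted p = 0.000402), and the ABA difference of -0.55 ± 0.14 was not (adjusted p = 0.0796), although neither pair of groups overlapped. The interaction was 0.58 ± 0.21, with an unadjusted p of 0.0124. Its partner MYB83 had 0.58 ± 0.32.

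XCP1 and XCP2, cysteine proteases of dying vessel cells, rose with ABA in both genotypes. XCP1 had 103, 85.3 and 101 CPM in vnd123 with ABA and 65.4, 68.9 and 72.1 CPM in vnd123 with mock, against 197, 189 and 174 CPM in Col-0 with ABA and 112, 109 and 102 CPM in Col-0 with mock. All vnd123 libraries lay below Col-0 of the same treatment, and the interaction was -0.30 ± 0.12. XCP2 had -0.31 ± 0.13. Lower-count members spread more, with -2.61 ± 0.89 for XND1, a NAC gene that represses xylem formation, -1.48 ± 0.58 for the protease gene CEP1 and -1.02 ± 0.47 for the lignin regulator MYB85. XND1 had 0.222, 0.0515 and 0 CPM in vnd123 with ABA and 0.0775, 0.442 and 0.222 CPM in vnd123 with mock, against 1.80, 1.73 and 1.40 CPM in Col-0 with ABA and 0.654, 0.246 and 1.01 CPM in Col-0 with mock.

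The list of photosynthesis genes, which marks green tissue among the roots, also differed between the groups. Of its 16 members, LHCB1.1, RBCS2B and RBCS3B did not pass the filter on low counts. Over the 13 tested, summed levels ran from 138 to 180 CPM in vnd123 with ABA, 199 to 263 CPM in vnd123 with mock, 195 to 266 CPM in Col-0 with ABA and 264 to 337 CPM in Col-0 with mock. No member had an unadjusted interaction p under 0.05, 2 were called lower in vnd123 in each treatment (0.944% of all genes under ABA and 0.484% in mock), and the median interaction was -0.145. PSBO1 of photosystem II had the smallest p of the list, with -0.30 ± 0.22. Its part in the results on wall genes and on the genes below was not tested. Root hair and epidermis markers summed to 888 to 1062 CPM in vnd123 with ABA and 926 to 1038 CPM in Col-0 with ABA. In mock they summed to 565 to 632 CPM in vnd123 and 576 to 616 CPM in Col-0.

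Dark-inducible genes of sugar starvation gave the largest list median, at -2.00 over 5 tested members of 6, which was the value of SEN1. Members ran from -2.8 to -0.36, and 1 interval lay within a 2-fold difference (81% of all genes). All 5 were below 0 (49.7% of all genes), 4 of them at an unadjusted p under 0.05 (3.58%), and 0 were called in the interaction. vnd123 minus Col-0 was called lower under ABA in 4 of the 5, SEN1, ASN1, BGLU30 and DIN4 (0.944% of all genes), and in mock in 0 (0.484%). BGLU30, a dark-inducible beta-glucosidase gene, had 2.15, 1.00 and 1.19 CPM in vnd123 with ABA and 1.61, 0.792 and 1.13 CPM in vnd123 with mock, against 31.6, 20.3 and 9.61 CPM in Col-0 with ABA and 5.17, 1.01 and 1.52 CPM in Col-0 with mock. Col-0 with ABA stood above all other libraries of vnd123 and Col-0. BGLU30 rose by 3.01 ± 0.49 in Col-0 and was 0.34 ± 0.58 in vnd123 (adjusted p = 0.704), an interaction of -2.67 ± 0.76 with an adjusted p of 1.

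ASN1, the dark-inducible asparagine synthetase, had 0.167, 0.438 and 0.0258 CPM in vnd123 with ABA and 1.51, 0.718 and 0.314 CPM in vnd123 with mock, against 8.13, 4.87 and 1.56 CPM in Col-0 with ABA and 5.41, 1.35 and 1.91 CPM in Col-0 with mock. SEN1, a marker of dark and senescence, had 0.925, 0.103 and 0.0258 CPM in vnd123 with ABA and 2.05, 0.534 and 0.480 CPM in vnd123 with mock, against 5.599, 5.89 and 2.70 CPM in Col-0 with ABA and 5.93, 1.33 and 1.91 CPM in Col-0 with mock. Both genes had their lowest mean in vnd123 with ABA, overlapping vnd123 with mock, and their Col-0 groups overlapped as well. Neither response was called in either genotype. The interaction was -2.77 ± 1.17 for ASN1 and -2.00 ± 1.11 for SEN1. DIN10, a raffinose synthase family gene, had 109, 56.8 and 68.9 CPM in vnd123 with ABA and 672, 363 and 358 CPM in vnd123 with mock, against 170, 220 and 109 CPM in Col-0 with ABA and 586, 368 and 371 CPM in Col-0 with mock. It fell in both genotypes, and its interaction was -1.15 ± 0.42.

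The mock library numbered 1 was the highest of its group in all 3 genotypes for SEN1, ASN1, DIN10 and BGLU30, and Col-0 ABA replicate 3 was the lowest of its group for all 5 genes. The 4 calls under ABA became 2 without vnd123 ABA replicate 2 or 3 or without Col-0 ABA replicate 1 or 2, and 5 without Col-0 ABA replicate 3. The 4 with an unadjusted interaction p under 0.05 became 2 without vnd123 ABA replicate 3, vnd123 mock replicate 1 or Col-0 mock replicate 2 or 3, and 5 without Col-0 mock replicate 1. The median interaction became -0.998 without vnd123 mock replicate 1, and over the alternatives it reached -2.91. In vnd7 with ABA, BGLU30 had 10.2, 6.28 and 6.71 CPM, SEN1 had 2.06, 2.01 and 0.491 CPM and ASN1 had 0.142, 0.440 and 0.427 CPM.

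**Figure D4:**
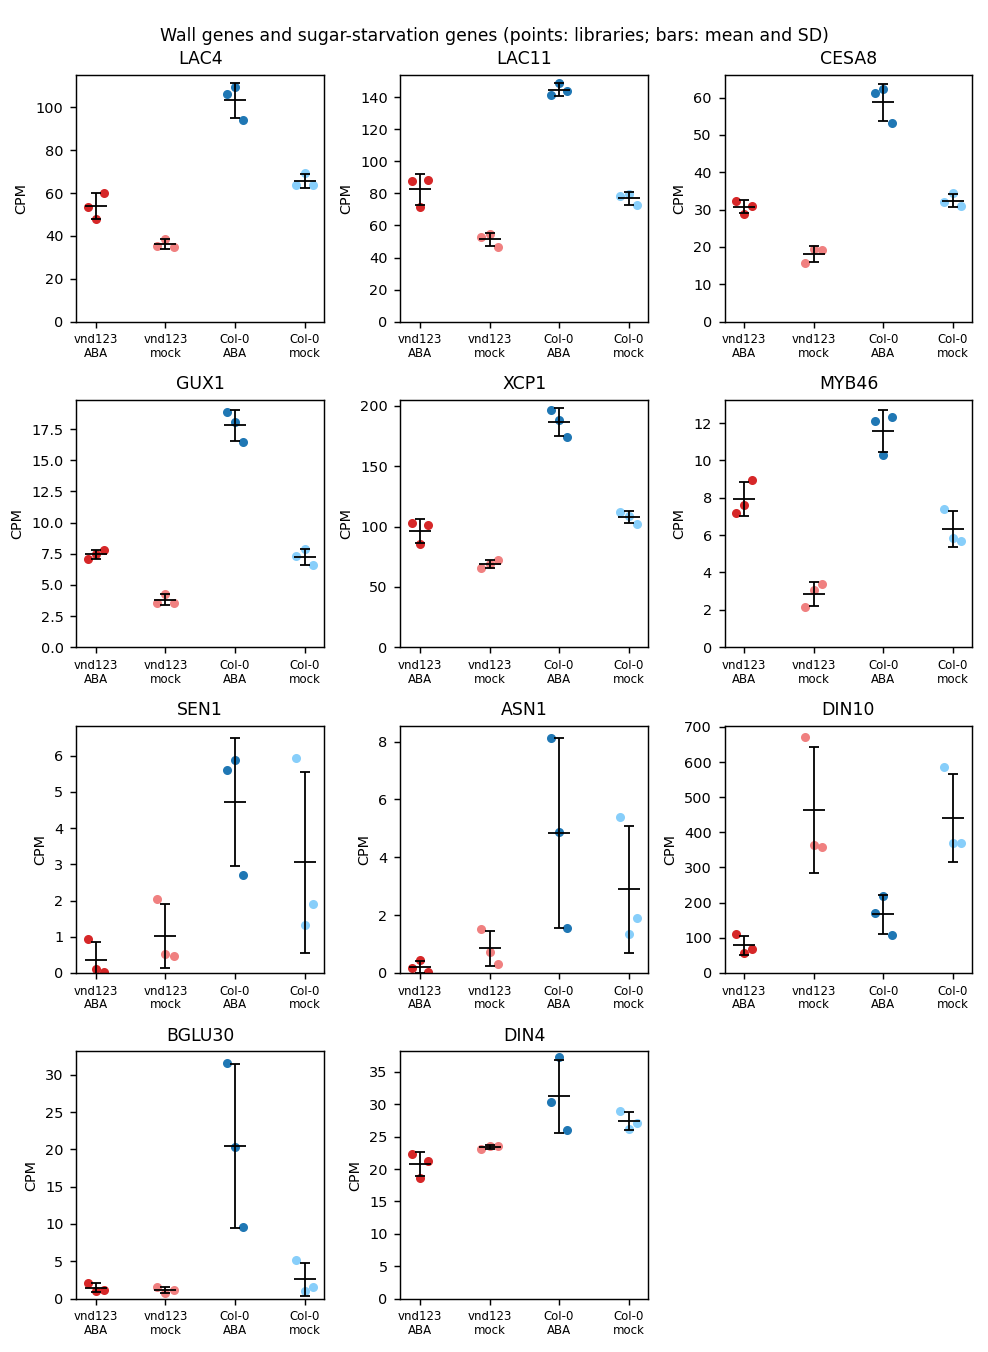
CPM by library of genes of lignin polymerisation (LAC4, LAC11), cellulose and xylan (CESA8, GUX1), vessel cell death (XCP1), wall regulation (MYB46) and sugar starvation (SEN1, ASN1, DIN10, BGLU30, DIN4), with vnd123 with ABA, vnd123 with mock, Col-0 with ABA and Col-0 with mock from left to right; points are libraries, and bars are the mean and SD of 3. The wall genes are lower in vnd123 in both treatments and higher with ABA in both genotypes, while BGLU30 is highest in Col-0 with ABA among these groups, at 9.61 to 31.6 CPM.

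The core of ABA signalling responded in both genotypes. All 9 clade A PP2C genes, which encode the phosphatases that the receptors inhibit, rose in vnd123 (18.6% of all genes) and in Col-0 (17.9%), with a median response of 2.45 in vnd123 and 2.54 in Col-0. Their median interaction was -0.097, 7 of the 9 intervals lay within a 2-fold difference (81% of all genes), and ABI1 had -0.10 ± 0.12. HAI2 and HAI3 had the widest intervals. HAI2 had 0, 0 and 1 reads in vnd123 with mock and 0, 0 and 14 reads in Col-0 with mock, so its fitted 3.32 ± 1.90 rests on few mock reads and turned to -1.91 without Col-0 mock replicate 3. Of 11 receptor genes, 7 fell in vnd123 and 6 in Col-0 (13.8% and 13.4% of all genes), and their median interaction was -0.0328. PYL12 was the 1 receptor at an unadjusted p under 0.05, with 1.51 ± 0.70. It had only 33, 34 and 87 reads in vnd123 with ABA and 8, 22 and 20 in Col-0 with ABA. With 1 library left out its interaction ran from 0.79 to 1.86.

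Of 16 ABA-response kinases and transcription factors, 13 rose in vnd123 (18.6% of all genes) and 13 in Col-0 (17.9%). Their median interaction was 0.000985, and 15 intervals lay within a 2-fold difference (81% of all genes). The HD-Zip factor gene HB-7 had 231, 165 and 241 CPM in vnd123 with ABA and 19.6, 18.5 and 25.2 CPM in vnd123 with mock, against 244, 238 and 165 CPM in Col-0 with ABA and 14.8, 15.1 and 19.2 CPM in Col-0 with mock. Its groups overlapped in both treatments, and the interaction was -0.39 ± 0.22. Of 22 LEA and dehydration genes, 21 rose in vnd123 (18.6% of all genes) and 21 in Col-0 (17.9%), by a median of 3.40 in vnd123 and 3.75 in Col-0, and the median interaction was -0.0932. LEA7 had at most 8 reads in any mock library of vnd123 or Col-0, so its interaction of 2.98 ± 1.40 also rests on few mock reads. The same holds for CYP707A4, an ABA hydroxylase gene, which had 0 reads in every Col-0 mock library.

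Suberin genes, which waterproof the endodermis, rose in 17 of 18 cases in vnd123 (18.6% of all genes) and in 17 in Col-0 (17.9%), and their median interaction was 0.0921. MYB92, a regulator of suberin synthesis, rose by 0.63 ± 0.08 in vnd123 and by 0.35 ± 0.08 in Col-0, an interaction of 0.28 ± 0.11. Endodermis and Casparian strip genes, which build the diffusion barrier of the root, had a median of 0.168 over 10 members. Of these, 9 were above 0 and 1 below (49.7% of all genes were below), and 0 had an unadjusted p under 0.05 (3.58% of all genes). The marneral synthase gene MRN1 had 105, 101 and 110 CPM in vnd123 with ABA and 11.8, 12.4 and 17.5 CPM in vnd123 with mock, against 89.2, 95.5 and 73.8 CPM in Col-0 with ABA and 6.76, 5.73 and 3.37 CPM in Col-0 with mock. It was higher in vnd123 in both treatments without overlap, called in mock at 1.41 ± 0.24 (adjusted p = 0.00331) and not under ABA at 0.29 ± 0.21 (adjusted p = 0.702), and its interaction was -1.12 ± 0.31 with an adjusted p of 1.

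Over all 33 lists, 416 members were tested and 0 were called in the interaction. At an unadjusted p under 0.05 there were 32 (7.69%, against 3.58% of all genes). Of the 416, 238 were below 0 (49.7% of all genes), and 316 intervals lay within a 2-fold difference (81% of all genes). Outside the wall and starvation lists, the auxin repressor gene IAA1 had -0.62 ± 0.21, the iron deficiency regulator MYB10 had 0.99 ± 0.33, the procambium gene WOX14 had -0.63 ± 0.28 and the chaperone gene HSP90.1 had 0.65 ± 0.30. Root hair, cell cycle and aquaporin lists had 0 members at that unadjusted p, and all of their intervals, 15, 18 and 19, lay within a 2-fold difference. Among genes with a mean log2 CPM above 1 that share was 95.4%. The smallest p of these lists belonged to MRH6 at 0.37 ± 0.18, the cytokinesis gene KNOLLE at 0.18 ± 0.10 and the aquaporin gene TIP2;2 at -0.24 ± 0.15.

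**Figure D5:**
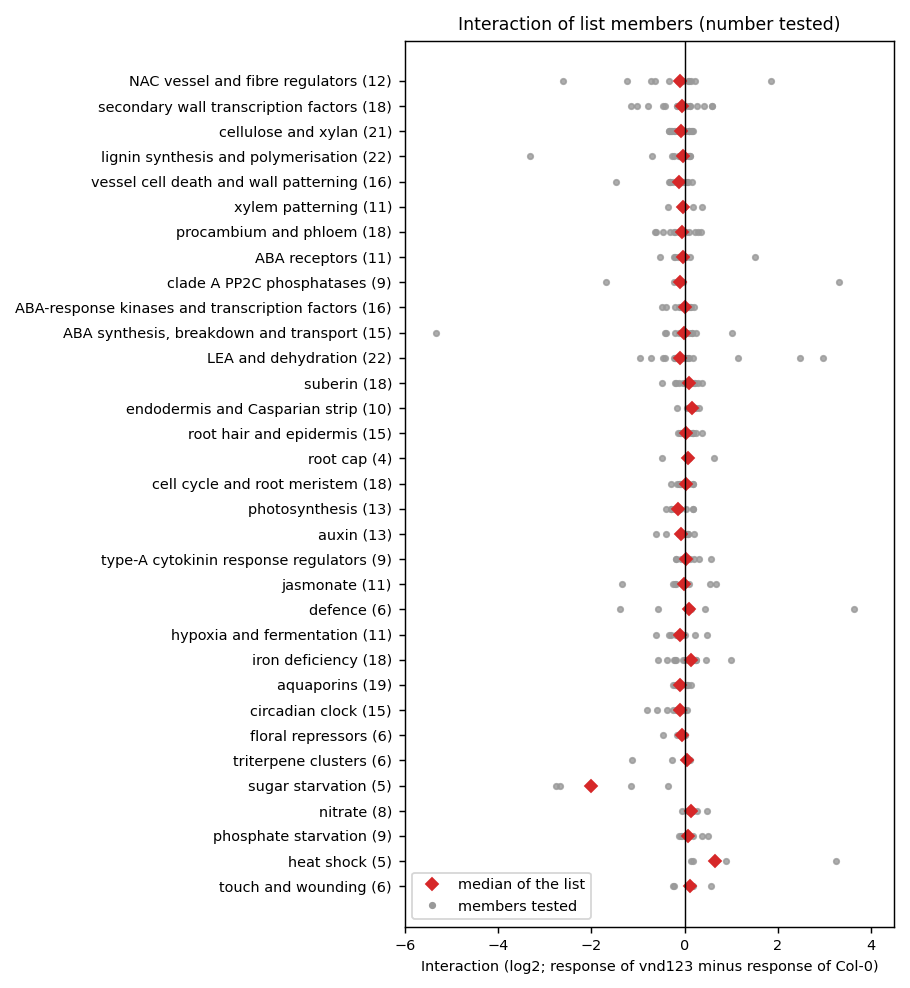
Interaction (x axis, log2; response of vnd123 minus response of Col-0) of the tested members of each of the 33 gene lists, with the number tested in brackets; grey points are members and red diamonds are list medians. Medians lie close to 0 except for sugar starvation at -2.00 and heat shock at 0.65, each with 5 members, and the farthest point is CYP707A4 at -5.33, a gene with 0 reads in every Col-0 mock library.

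Genes were also grouped by the average ABA response of vnd123 and Col-0, a contrast that does not use the interaction. It was called in 9465 genes (45.4%), of which 55.1% were higher, or 40.4% with unscaled library sizes. The 5216 genes that rose (25%) had a median interaction of -0.00776, and the 4249 that fell (20.4%) had -0.00056. The 1226 that rose at least 2-fold had a median of -0.0852, with 60.9% below 0 against 49.7% of all genes, and the 797 that fell at least 2-fold had -0.001. The median log2 CPM of those 1226 genes was 2.88, 2.75 and 3.02 in vnd123 with ABA and 0.98, 0.97 and 1.05 in vnd123 with mock, against 3.23, 3.19 and 2.98 in Col-0 with ABA and 1.2, 0.96 and 1.06 in Col-0 with mock. These levels overlapped between vnd123 and Col-0 in both treatments.

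Within each treatment the genotype difference was smaller than the ABA response in number of genes. vnd123 minus Col-0 was called in 227 genes (1.09%) under ABA, 30 higher and 197 lower, and in 127 (0.609%) in mock, 26 higher and 101 lower. The 89 genes called in both treatments moved the same way, and they were 39.2% of the ABA calls and 70.1% of the mock calls. Of the 138 genes called under ABA and not in mock, 74 had an interaction with an unadjusted p under 0.05 and 0 with an adjusted p under 0.05, so being called in ABA alone did not show a different response. The counts under ABA changed when 1 library was left out, which also leaves fewer libraries in that group. The 197 lower calls became 107 without vnd123 ABA replicate 2, 106 without Col-0 ABA replicate 1 and 102 without Col-0 ABA replicate 2, and the 30 higher calls became 14 without vnd123 ABA replicate 2 or Col-0 ABA replicate 2. In mock the 26 higher calls became 16 without vnd123 mock replicate 2 or Col-0 mock replicate 2. Averaged over both treatments, a comparison added after seeing the data, 418 genes (2%) were called. The median interaction was 0.0118 for the 87 higher genes, which became 52 calls without vnd123 mock replicate 2, and -0.114 for the 331 lower genes (1.59%).

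The interaction of vnd7 with ABA, which shares the Col-0 libraries, was called in 0 genes (0%) with edgeR, 835 (4%) at an unadjusted p under 0.05, and in 0 with DESeq2. The response of vnd123 minus that of vnd7 uses no Col-0 library but reuses the vnd123 libraries of the interaction. It is therefore not a separate test of genes ranked by the interaction. This difference was called in 0 genes (0%) with edgeR and 964 (4.62%) at an unadjusted p under 0.05. DESeq2 called 2 genes there, RXF12, a member of no list and named because it was called, at 0.74 ± 0.16 and LAC17 at -0.66 ± 0.14, both with an adjusted p of 0.0479. LAC17 had 76.0, 80.9 and 79.0 CPM in vnd7 with ABA and 33.7, 29.5 and 34.5 CPM in vnd7 with mock, levels at or above those of Col-0. Its edgeR value for vnd123 minus vnd7 was -0.65 ± 0.13 (unadjusted p = 9.64e-05, adjusted p = 0.671), and its interaction was -0.71 ± 0.13 in vnd123 and -0.05 ± 0.13 in vnd7. For AT2G40390 the interaction was -2.00 ± 0.42 in vnd123 and -0.23 ± 0.40 in vnd7, and for AT1G67870 it was -0.82 ± 0.18 in vnd123 and -0.74 ± 0.18 in vnd7. WCRKC1 had -2.66 ± 0.58 in vnd123 and -1.58 ± 0.51 in vnd7, GLYI7 had -3.08 ± 0.61 in vnd123 and -1.38 ± 0.55 in vnd7, and AT1G44030 had -1.80 ± 0.42 in vnd123 and -0.96 ± 0.44 in vnd7. Other genes of the 20 differed in how near the values were. AT3G19430 had -1.27 ± 0.31 in vnd123 and -1.19 ± 0.31 in vnd7, and PR4 had -0.43 ± 0.10 and -0.41 ± 0.10. CER3 had -0.54 ± 0.14 in vnd123 and -0.40 ± 0.14 in vnd7, and SUS1 had -0.61 ± 0.15 and -0.34 ± 0.15. AT5G05960 had -0.67 ± 0.16 in vnd123 and -0.15 ± 0.16 in vnd7, and WRI1 had 0.52 ± 0.12 and 0.10 ± 0.12. These pairs share the Col-0 libraries. VND7 had -0.63 ± 0.34 in vnd123 and -1.69 ± 0.43 in vnd7, where it is the mutated gene.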

How the data were processed

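The authors deposited whole-number read counts per gene, not normalized. HISAT2 and HTSeq are named in the submitters' processing notes. Tool versions, the genome build, the annotation and how reads were counted are not given in the sources, so no coordinates or sequences are printed. Per the labels' protocols, libraries were made with the NEBNext Ultra RNA kit for paired-end reads. This kit, as opposed to its directional version, does not mark strand. Of 32833 locus codes, 32548 were found in the TAIR10.1 annotation, which was used for names and overlaps, and 10804 had a symbol. The other 1385 features carry no locus code. Counts of replicates scattered beyond sampling noise (chi-square per degree of freedom 8.87 to 30.6).

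Counts were analysed in R 4.3.3 with edgeR 4.0.16. Genes were filtered with filterByExpr by group, libraries were scaled with TMM, and all 18 libraries entered 1 quasi-likelihood fit with 6 group means. Each comparison is a contrast, with Benjamini-Hochberg adjustment over all 20869 genes. Alternatives were DESeq2 1.42.0, other scalings, no filter on low counts, only the groups of a contrast, a replicate block, and leaving out each library. The code was tested on simulated counts. Near-identical copies were sought with blastn 2.17.0 within the reference.

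The comparison, the 33 lists (459 members, 446 of them named so in the reference) and the rule for named genes were chosen with earlier results of these data known. The rule names the VND genes, the 20 genes with the smallest interaction p, and from each list the member with the smallest p. Of the 54 genes so named, 11 overlap another gene. Total counts per library, given in the report, limit the precision of low genes. The 95% intervals come from the edgeR fit and use the SE derived from its F statistic.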

Additional observations from a re-analysis of the deposited data

How the results depend on the processing

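Over 24 alternatives, 1287 of 1296 values of the named genes kept their direction and their side of the threshold. DESeq2 moved 6 genes past it, the fit of only the groups of the contrast moved AT5G50550 past it, and 2 values reversed, VND1 to -0.62 without vnd123 ABA replicate 2 and HAI2 to -1.91 without Col-0 mock replicate 3. With 1 library left out VND1 ran up to 3.99 and HAI2 up to 5.10. The interaction was called in 6 lower genes with DESeq2 and in 1 higher gene with only the groups of the contrast, and in 0 genes under the other alternatives. For vnd123 minus vnd7, DESeq2 called 1 higher and 1 lower. vnd123 minus Col-0 under ABA gave 73 higher and 334 lower with DESeq2, 15 higher with only the groups of the contrast and 296 lower with the replicate block, and 14 to 42 higher and 102 to 242 lower with 1 library left out. In mock it gave 71 higher and 164 lower with DESeq2 and 16 to 31 higher with 1 library left out. Averaged over treatments it gave 175 higher and 505 lower with DESeq2 and 52 to 121 higher with 1 library left out. The median interaction of genes that fell with ABA ran from -0.0168 to 0.042 with 1 library left out, and that of genes that rose from -0.03 to 0.00929. The cause of these differences was not tested. Unscaled library sizes moved no median of a comparison by more than 0.1.

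Over all genes, replicate numbers were not taken to pair the samples: of 18 pairs of same-numbered libraries, the correlation of deviations from the group means ran from -0.0874 to 0.122 and exceeded 0.1 in 2. With the replicate block the interaction was called in 0 genes, as without it. For the sugar starvation genes, whose mock level in replicate 1 stood highest for 4 of the 5, the block gave 5 of 5 called lower in vnd123 under ABA, 5 at an unadjusted interaction p under 0.05 and a median of -2.37. Wall genes called lower in vnd123, with VND1, VND2 and VND3 not taken out, numbered 27 to 40 under ABA and 24 to 30 in mock over the alternatives. Low-count genes limit what can be seen, with a median SE of 0.676 at a mean log2 CPM of 1 or less. A planned search for promoter motifs was not run, because the build of the files is not given.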
